A study of Homo sapiens with 14 samples.

Results

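The baseline transcriptome of HEK293 was described from the 6 arrays of vector lines among the 14 arrays of the series. They are the arrays labelled as vector lines: 3 arrays of cells carrying an HA-tag vector and 3 of cells carrying a V5-tag vector. The study used both vector lines as the reference for lines that overexpress HOXD9 or HOXD13, and the 8 arrays of those lines were not used here. All 6 arrays were made from total RNA, extracted with Trizol, of cells grown in RPMI 1640 medium with 10% fetal bovine serum at 20% oxygen and 5% carbon dioxide. HA and V5 are short peptide tags, and the vectors here carried a tag without a HOX gene. G418, a drug that kills cells lacking a resistance gene, was used to select the stable lines. By the sample descriptions the groups share the parental line and the G418 selection and differ in the tag vector. The labels call the 3 arrays of each vector biological replicates without saying how the cultures were separated. The p-values thus measure how these samples vary, and that variation may be technical.

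HEK293 cells came from a culture of human embryonic kidney that was transformed with DNA of an adenovirus. The viral E1A protein binds RB and frees E2F transcription factors, which switch on genes of DNA replication. The line is called a kidney line by its origin, but neuronal and adrenal features have also been described for it, and it is a standard host for cloned receptors and channels. Marker genes of several lineages were therefore read side by side.

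Every array held 54675 probe sets, short groups of probes for 1 transcript, of which 41091 carried 1 gene symbol. With 1 probe set per gene, the one with the highest mean, 19775 genes were read. The deposited values are log2 expression values made by GCRMA, per the submitters' processing notes, and the HA and V5 arrays were normalized apart: the 75th percentile of the probe sets was 6.27 on each HA array and 7.02 on each V5 array. A log2 level of an HA array was for this reason never set against one of a V5 array. Each gene was instead given its percentile within its own array, where 100 is the highest gene and 50 the middle one. Probe sets differ in how well they bind, so the ranks place genes in broad bands, and neighbouring genes have no order.

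A limit for background was set from 91 genes of tissues that HEK293 does not resemble, such as lens crystallins, milk proteins and lymphocyte receptors. The 95th percentile of their ranks lay between percentiles 41.5 and 42.4 of the 6 arrays, which is a log2 value of 2.79 to 2.86 on the HA arrays and 3.16 to 3.21 on the V5 arrays. A gene over the limit on all 6 arrays is called above background, and one under it on all 6 is called within background, a statement about its probe set and not proof that the RNA is lacking. By this rule 11195 genes (56.6%) were above background, 8004 (40.5%) were within it, and 576 (2.91%) were over the limit on some arrays only. As the limit was drawn from them, 86 of the 91 reference genes lay within it by construction. The other 5 were KRT10 (mean percentile 94.0), CRYGD (54.8), BFSP1 (53.7), CR2 (44.6) and CD8A (44.5). None of the 82 olfactory receptor genes read was above background, and their median percentile was 8.12.

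The arrays of 1 vector ranked the genes almost identically. Spearman's rho over all genes, which are not independent of each other, ran from 0.9988 to 0.9994 over the 6 pairs of arrays with the same vector and from 0.9907 to 0.9909 over the 9 pairs with different vectors. The median SD of an expressed gene over 3 arrays was 0.05 on the log2 scale in both sets, and its median range was 0.695 percentile points in the HA arrays and 0.693 in the V5 arrays. No expressed gene moved by more than 10 points within a set. The widest ranges were those of ZNF468, a zinc finger gene, at 5.02 points over the V5 arrays and of FBLL1, a fibrillarin relative, at 4.81 points over the HA arrays. Within a vector, the rank of a gene therefore repeated to within a few points, while between the vectors some genes moved further, as given at the end.

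The top of the list belonged to protein synthesis. Of the 50 genes with the highest mean rank, 36 encoded proteins of the cytoplasmic ribosome. RPL41, a very small basic protein of the ribosome, ranked 1 to 2 over the 6 arrays, and RPLP1, a protein of its acidic stalk, ranked 1 to 3. Close behind came RPS19, a small subunit protein at ranks 2 to 8, with RPL37A at 4 to 7 and RPS16 at 4 to 7. Outside the ribosome, EEF1A1, which brings aminoacyl-tRNA to the ribosome, stood at ranks 3 to 6. Its log2 values were 14.97, 14.97 and 14.95 on the HA arrays and 15.35, 15.42 and 15.34 on the V5 arrays, close to the highest value on each array. EEF1A1 was read by a probe set of the _x_at class, which can also bind near-identical copies and pseudogenes, so its reading may include them. The same holds for COX2, TPT1, PPIA, HMGN2, TUBA1B, NACA, PABPC1, GNAS and HUWE1 among the highest genes and for KRT18 and KRT8 among the markers.

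The start sites of these genes are shown because messengers of the translation apparatus are known to begin with a C and a run of pyrimidines, the 5′ terminal oligopyrimidine (TOP) tract through which mTOR signalling controls their translation. Each line gives 10 bases before and 20 bases from the annotated start of a RefSeq transcript in GRCh38.p14, read 5′ to 3′ on the gene's strand, so the last 20 bases lie in the 5′ end of the first exon. Capitals mark the unbroken run of C and T that opens with a C at the start. The windows lie at chr12:56116623-56116652 (RPL41, plus strand), chr15:69452808-69452837 (RPLP1, plus), chr19:41860245-41860274 (RPS19, plus), chr2:216498834-216498863 (RPL37A, plus) and chr6:73521013-73521042 (EEF1A1, minus).
RPL41: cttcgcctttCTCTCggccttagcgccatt
RPLP1: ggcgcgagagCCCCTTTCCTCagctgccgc
RPS19: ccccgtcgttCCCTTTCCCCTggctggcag
RPL37A: gcgtctcttcCTTTCTgggctcggacctag
EEF1A1: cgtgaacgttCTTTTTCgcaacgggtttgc
The 5 highly ranked genes each open with such a run, of 5 bases in RPL41, 11 in RPLP1, 11 in RPS19, 6 in RPL37A and 7 in EEF1A1. A second annotated start of RPS19, further into the gene, has none.

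The same search was run on every start window held, 21490 windows of 15384 of the genes read, counting a C at the start followed by at least 4 bases that are C or T. Such a start was found in 59.3% of the 59 windows of ribosomal protein genes, or 35 of 51 such genes, against 4.43% of all windows. The share was 3.16% for genes within background, 5.15% for genes above it, 7.95% for those in the top 10% on all 6 arrays and 27.7% for those in the top 1%. Without ribosomal protein genes the top 1% still held such a start in 30 of 169 windows (17.8%). The match describes letters at an annotated start and does not show that a messenger is controlled through them.

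Promoter composition also differed between the classes. Over the 300 bases from 250 before to 50 after each start, the median GC content was 65.0% for genes above background, 56.0% for genes within it and 62.7% for all. CpG dinucleotides stood at 0.826 of the number their base content would give in the first class and at 0.364 in the second. GGGCGG on either strand, the core of the GC box that SP1 binds, was found in 67.0% of windows of genes above background and in 37.0% of those within it, with 56.7% over all. TATAAA, the core of the TATA box, was searched on the gene's strand upstream of the start and went the other way, at 3.45%, 9.30% and 5.47% for the same classes. CCAAT on either strand hardly differed, at 34.9% and 33.9%. GC content and the GC box overlap as measures, since a GC-rich window holds GGGCGG more often. The genes share promoters, families and annotation effort, so these shares are given without a test.

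**Figure D1:**
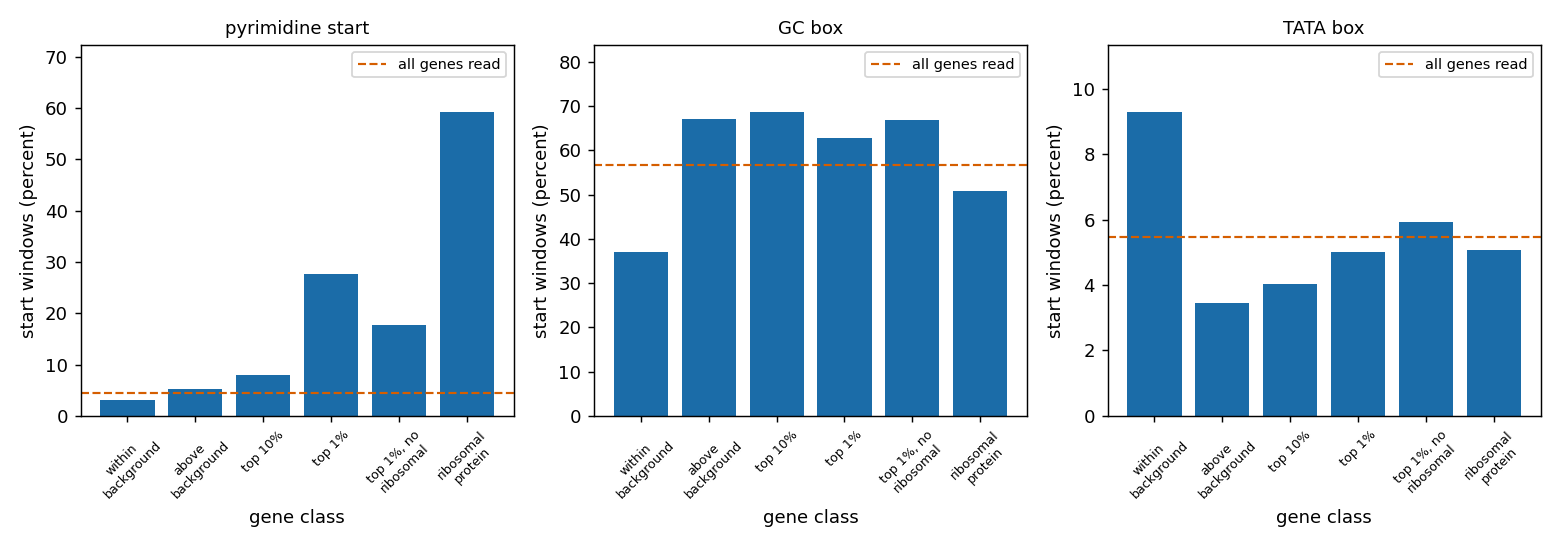
Share of start windows (percent, each axis from 0) that hold a pyrimidine start, a GC box core or a TATA box core, for classes of genes by rank in the 6 vector arrays; the dashed line marks all genes read. The pyrimidine start reaches 59.3% in ribosomal protein genes against 4.43% over all, and the TATA box core is at 9.30% in genes within background against 3.45% in genes above it.

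Of the 59 ribosomal protein genes read, 56 were above background and 50 were in the top 1% on all 6 arrays, where they made up 27.0% of the 185 genes. The median of the 59 was percentile 99.8, against 50.1 over all genes. Members outside the top 1% included paralogs of other ribosomal genes. RPL39L, a copy of RPL39 known from testis and cancer, stood at 85.4 to 85.8, and RPL10L, a retrogene known from testis, at 48.7 to 57.4. RPL3L, a muscle form of RPL3, lay within background at 12.5 to 12.7, together with the probe sets of RPL36A and RPLP2.

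Mitochondrial, chaperone and chromatin genes filled the next places. COX2, here the mitochondrial gene of cytochrome c oxidase subunit 2, ranked 10 to 13, and the mitochondrial genes ND4, ATP6 and COX1 ranked 25 to 36, 35 to 49 and 38 to 52. UBB, a ubiquitin gene, ranked 10 to 15, and TPT1, an abundant growth-associated protein, 17 to 23. PPIA (cyclophilin A), the initiation factor EIF1 and the elongation factor EEF2 ranked 26 to 37, 28 to 42 and 36 to 42. HMGN2, which binds nucleosomes, the histone gene H2AZ1 and the tubulin gene TUBA1B all kept ranks between 42 and 52. The remaining genes among the 20 highest outside the ribosome were NACA (51 to 53), HSP90AA1 (55 to 61), PABPC1 (58 to 65), YBX1 (61 to 64), GNAS (57 to 66), HUWE1 (55 to 71) and the noncoding RNA XIST (30 to 54).

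Translation factors, glycolysis and the cytoskeleton were expressed nearly throughout. Of 13 translation factors read, 12 were above background with a median percentile of 99.3. EIF4A2 was the exception at a mean of 33.9, and it was read here by 1 probe set at the floor, which need not match its main transcript. Of 21 genes of glycolysis and glucose uptake, 18 were above background, led by GAPDH (99.6 to 99.7), LDHB (99.6), ENO1 (99.5 to 99.6) and LDHA (99.2 to 99.3). The 3 within background were forms of other tissues: HK3 (10.1), the hexokinase of blood cells, SLC2A2 (6.21), the glucose transporter of liver and islets, and SLC2A4 (15.7), that of muscle and fat. Of 17 actins and tubulins, 13 were above background, led by TUBA1B, ACTB and TUBA1C, all at 99.6 or higher.

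Genes of cell division stood almost as high. All 18 genes of the proliferation list were above background, against 56.6% of all genes, with a median percentile of 94.9 against 50.1. Of the 18, 13 (72.2%) were in the top 10%, against 9.25% of all genes. TYMS, which makes thymidylate for DNA synthesis, lay at 99.5 to 99.6, the polymerase clamp PCNA at 99.4, and RRM2 and RRM1, the subunits of ribonucleotide reductase, at 98.8 to 99 and 98.9 to 99. The helicase genes MCM7, MCM2 and MCM3 stood at 98.4 to 98.6, 98.3 to 98.6 and 98.0 to 98.1. Of the genes of mitosis, CDK1 stood at 94.2 to 96.2. Some took lower places, with AURKB at 81.1 to 83.5, MKI67 at 80.5 to 84.7 and PLK1, a mitotic kinase, at 45.7 to 47.9. CCNB1, CCNB2, AURKA, BIRC5, BUB1 and TOP2A were also read. Since 13 of the 18 genes were in the top 10%, most of these were there too.

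The network of RB, E2F factors and inhibitors of the cell cycle was read with 18 genes, all above background, at a median percentile of 85.8. Among inhibitors of cyclin-dependent kinases, CDKN1A (p21) stood at 94.6, 94.6 and 94.7 on the HA arrays and 94.0, 93.8 and 93.6 on the V5 arrays. CDKN1B (p27) lay at 92.8 to 93.9. CDKN2A, which encodes p16 and ARF and is held down by RB in many cells, stood at 93.3, 93.2 and 93.1 on the HA arrays and 92.5, 92.6 and 92.8 on the V5 arrays. These 3 inhibitors were thus in the top 10% in cells that also ranked replication genes there. CDKN2B, another inhibitor read, was above background but not among the 6 genes of this network in the top 10%.

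MDM2, a ubiquitin ligase, lay at 90.4 to 92.8 and its relative MDM4 at 89.4 to 90.4. RB1 itself stood at 88.5, 87.9 and 88.6 on the HA arrays and 89.2, 89.7 and 87.4 on the V5 arrays. Its relatives RBL1 and RBL2 lay at 77.2 to 80.5 and 74.6 to 77.7. Among the transcription factors RB binds, E2F2 stood at 91.4 to 92.9, E2F3 at 86.3 to 87.8 and E2F1 at 60.9 to 62.8. CCNA2, an E2F target, lay at 92.6 to 93.2, and the G1 cyclin genes CCNE2 and CCNE1 at 81.7 to 82.9 and 69.3 to 71.1. MYC was at 83.9 to 85.2, while MYCN, its neural relative, was just over the limit at 42.5 to 44.0.

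The given markers of the line did not all mark it. KRT18, a keratin of simple epithelia, stood at percentiles 95.7, 95.7 and 95.7 on the HA arrays and 94.5, 94.5 and 94.5 on the V5 arrays, with log2 values of 11.01, 11.02 and 11.04 and of 11.35, 11.35 and 11.36. CDH2, the N-cadherin of neural and mesenchymal cells and of early nephrons, stood at 91.3, 91.6 and 91.5 and at 90.4, 89.8 and 89.7. Both were in or near the top 10% on every array. A second probe set of CDH2 was dimmer, at mean log2 values of 7.58 on the HA and 8.24 on the V5 arrays, yet also far over the background limit.

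EYA1 and PAX2, transcription regulators of the early kidney, were measured at low ranks. EYA1 stood at percentiles 56.0, 54.6 and 55.7 on the HA arrays and 53.7, 54.6 and 52.8 on the V5 arrays by 1 probe set, while its other probe set lay at the floor, at mean log2 values of 2.27 and 2.22. PAX2 stood at 47.3, 47.3 and 47.0 and at 45.5, 45.1 and 45.1, a few points over the limit, and its other probe set at mean log2 values of 2.72 and 2.57 was under it. NEFM, the middle subunit of the neurofilament, lay within background on both of its probe sets: at 29.3, 29.4 and 29.3 on the HA arrays and 29.8, 29.4 and 29.5 on the V5 arrays for the brighter one. Of the 5 markers named for the line, 2 were therefore high, 2 were low but above background and NEFM was not above it.

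**Figure D2:**
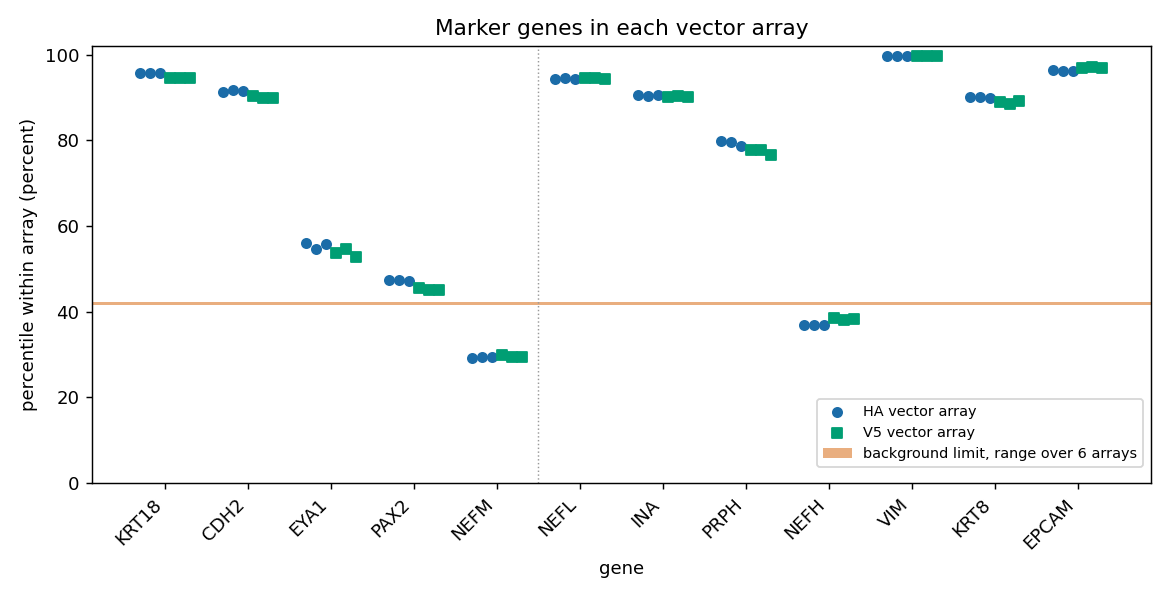
Percentile within its array (percent, vertical axis) of the 5 given markers, left of the dotted line, and 7 further lineage genes on each of the 3 HA (circles) and 3 V5 (squares) vector arrays; the band is the background limit. KRT18 and CDH2 lie at 89.7 to 95.7, EYA1 and PAX2 at 45.1 to 56.0, and NEFM at 29.3 to 29.8 below the limit, while NEFL, INA and PRPH lie over it.

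Genes of the embryonic kidney were present in part. Of 11 nephron progenitor genes read, 7 (63.6%, against 56.6% of all genes) were above background. The median of the list was percentile 54.3 against 50.1 over all genes, and none was in the top 10%. SALL1, a zinc finger gene needed for the metanephros, stood at 78.2, 77.0 and 78.3 on the HA arrays and 80.0, 79.7 and 79.2 on the V5 arrays, and both of its probe sets were over the limit. SIX2, the transcription factor that keeps nephron progenitors in the cap mesenchyme, stood at 64.3, 65.0 and 62.6 and at 60.9, 60.5 and 59.3 on 1 probe set, and its other probe set was at the floor. CITED1, a marker of the same cells, stood at 68.3, 67.2 and 68.3 and at 66.9, 66.1 and 66.5. WT1, which the progenitors and later the podocytes express, lay at 53.6 to 55 on 1 of 2 probe sets. MEOX1 (26.5), HOXC11 (17.1) and OSR1 (9.43), a gene of the early renal mesoderm, were within background. Progenitor regulators thus ranged from percentile 78.7 down to 9.43. In bulk RNA such as this, fewer cells of a type and less RNA per cell cannot be told apart.

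Genes of the mature nephron were mostly within background. Of 10 proximal tubule genes, LRP2 (megalin) alone was above background, at 43.2 to 43.7, and CUBN, its partner in protein uptake, was at 5.98. None of 5 genes of the loop of Henle and distal tubule was above it, among them the salt transporters SLC12A1 (40.2) and SLC12A3 (5.65). Of 13 genes of the ureteric bud and collecting duct, 5 (38.5%, against 56.6% of all genes) were above background. They were GATA3 (84.7 to 86.5), a transcription factor of the nephric duct, the water channel AQP3 (mean 65.4), EMX2 (65.0), TFCP2L1 (57.6) and WNT11 (52.0). RET (37.6), the GDNF receptor of the bud tip, LHX1 (36.2) and the vasopressin-controlled channel AQP2 (28.3) were within background. PAX8, a regulator of duct and tubule, did not reach the limit on all arrays with any of its 8 probe sets.

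Of 7 podocyte genes read, 4 (57.1%, against 56.6% of all genes) were above background, among them WT1, given above. PTPRO, a phosphatase of podocytes that neurons also express, stood at 93.0, 92.6 and 92.6 on the HA arrays and 91.6, 91.3 and 91.6 on the V5 arrays. CD2AP, an adaptor found in many cells, lay at 69.2 to 77.6 and PODXL, a surface sialomucin, at 66.3 to 68.2. NPHS1 (nephrin), the defining protein of the slit diaphragm, was within background at 30.5 to 31.1, as were SYNPO (30.1 to 39.8) and PLA2R1 (34.3 to 35.0).

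Neuronal genes included some of the most highly ranked lineage markers. Of 20 read, 12 were above background and 4 were in the top 10%, although the median of the list, percentile 47.1, was close to the 50.1 of all genes. UCHL1 (PGP9.5), a ubiquitin hydrolase abundant in neurons, stood at 98.4, 98.4 and 98.4 on the HA arrays and 98.3, 98.1 and 98.2 on the V5 arrays. TUBB3, the class III beta tubulin used to stain neurons, stood at 97.5, 97.3 and 97.5 and at 97.2, 97.1 and 97.1. Both were thus in the top 10% of the genes on every array, in each vector line.

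The intermediate filament genes of neurons were unequal. NEFL, the light subunit of the neurofilament, stood at 94.4, 94.4 and 94.4 on the HA arrays and 94.6, 94.6 and 94.4 on the V5 arrays, and all 3 of its probe sets had log2 values of at least 7.65. INA, alpha-internexin, stood at 90.5, 90.4 and 90.5 and at 90.1, 90.2 and 90.1, and PRPH, peripherin, at 76.6 to 79.8. NEFM and NEFH, the middle and heavy subunits, were within background at 29.3 to 29.8 and 36.8 to 38.6, on both probe sets of each. HEK293 therefore showed RNA of 3 neuronal filament proteins without a reading of the other 2 over background.

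Among further neuronal genes, the adhesion molecule NCAM1 lay at 77.7 to 79.8, the enolase ENO2 at 69.6 to 73.4 and the calcium sensor of vesicles SYT1 at 68.4 to 70.2. MAP2, L1CAM, SNAP25 and GAP43 lay lower, between 44.2 and 58.0. DCX (doublecortin) and STMN2, genes of young neurons, and the RNA-binding gene ELAVL4 were within background. Of 10 neural progenitor genes, 5 were above background, a smaller share than the 56.6% of all genes. The median of the list was percentile 41.5, against 50.1 over all genes. Above background were SOX4 (97.1 to 97.2), SOX11 (87.1 to 88.0), PAX6 (84.7 to 86.7), SOX2 (77.2 to 78.1) and NES (45.3 to 48.0). NEUROG2, SOX1 and MSI1 were among those that were not. SOX4 and SOX11 are also expressed in other embryonic tissues.

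Of the adrenal lineages proposed for the line, no gene was above background. Looser limits put 1 chromaffin or sympathetic gene and 1 gene of the adrenal cortex over it. Among 9 genes of chromaffin and sympathetic cells, TH and DBH, enzymes of catecholamine synthesis, stood at 5.92 to 6.12 and 15.8 to 16, and CHGA at 15.6 to 23.1. PNMT, which makes adrenaline, was at the limit (41.8 to 42.5). Among 7 genes of the adrenal cortex, NR5A1, the master regulator of steroid-producing cells, stood at 14 to 16.3 and CYP11A1, which starts steroid synthesis, at 2.71 to 3.30. Of 7 neural crest genes, 4 (57.1%, against 56.6% of all genes) were above background: TFAP2A (88.2 to 90.1), ETS1 (69.2 to 69.9), FOXD3 (56.4 to 57.4) and SOX9 (53.6 to 55.6). SOX10, the regulator that marks migrating crest and its glia, was within it at 10.4 to 10.5. Of 7 glial genes only MBP (63.8 to 66.5) and OLIG2 (49.3 to 52.0) were above background, and GFAP was at 13.4 to 13.8.

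Epithelial and mesenchymal genes were both read above background, in shares near that of all genes. Of 16 epithelial genes, 10 (62.5%) were above it with a median percentile of 58.4, and of 16 mesenchymal genes, 11 (68.8%) were, with a median of 58.2, against 56.6% and 50.1 over all genes. Without probe sets ending in _x_at or _s_at the counts were 5 and 7, a setting that drops KRT18, KRT8, EPCAM and VIM for want of another probe set. EPCAM, an adhesion molecule of epithelia, stood at 96.4, 96.3 and 96.1 on the HA arrays and 96.8, 97.0 and 96.8 on the V5 arrays. VIM, the intermediate filament vimentin, stood at 99.6 on each of the 6 arrays, with log2 values of 13.75, 13.79 and 13.78 and of 14.12, 14.12 and 14.11. Both lists therefore had a member near the very top.

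On the epithelial side the junction genes DSP (desmoplakin), TJP1 (ZO-1) and OCLN (occludin) lay at 95.2 to 95.7, 93.9 to 94.4 and 90.5 to 90.9. KRT8, the partner of KRT18 in simple epithelia, stood at 88.5 to 90.1. CDH1, E-cadherin, stood at 63.5, 62.9 and 63.3 on the HA arrays and 63.6, 63.8 and 64.2 on the V5 arrays. KRT19 (18.7 to 19.7), KRT7 (30.4 to 31.0), the claudins CLDN4 and CLDN7, and GRHL2, a transcription factor of epithelia, were within background. Of 44 keratin genes read, 4 were above it: KRT18, KRT8, KRT10 (93.0 to 95.2), a keratin of the upper skin, and KRT222 (43.4 to 44.2).

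On the mesenchymal side ACTA2, smooth muscle actin, lay at 90.3 to 92.7 and FN1, fibronectin, at 89.8 to 91.0. The transcription factors TWIST1, ZEB1, SNAI2 and ZEB2 were all above background, between 54.1 and 80.2. COL1A1 lay at 63.9 to 67.9, but COL1A2 (20.8 to 21.1), which encodes the other chain of type I collagen, COL3A1 (34.0 to 36.1), THY1 (17.1 to 17.9) and PDGFRB (10.6 to 11.2) were within background. Of 13 classical and related cadherins, 3 were above it: CDH2, CDH1 and CDH11 (43.8 to 48.9). The kidney cadherins CDH6 (29.4 to 30.1) and CDH16 (19 to 19.3) were not.

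Other lineages lay mostly within background. No member was above background among 8 endothelial, 9 blood, 7 hepatocyte and 5 squamous genes, including PECAM1 (30.8), PTPRC (35.7), ALB (30.9) and KRT5 (0.955). Of 8 muscle genes, TNNT1, the slow skeletal troponin T, stood alone at 86.0, 84.9 and 85.5 on the HA arrays and 84.5, 84.8 and 85.7 on the V5 arrays. Of 10 genes of pluripotent and germ cells, LIN28B, which blocks the let-7 microRNAs, stood alone at 88.9, 89.5 and 89.1 and at 90.7, 91.0 and 90.8. NANOG (23.3), LIN28A (21.6) and SALL4 (11.3) were within background. Across 20 lists 62 genes were above background. These were the given markers, the cadherins and the cell type lists other than that of pluripotent and germ cells, so LIN28B is not counted. No share over all genes was set beside this count, and nothing is read from it.

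**Figure D3:**
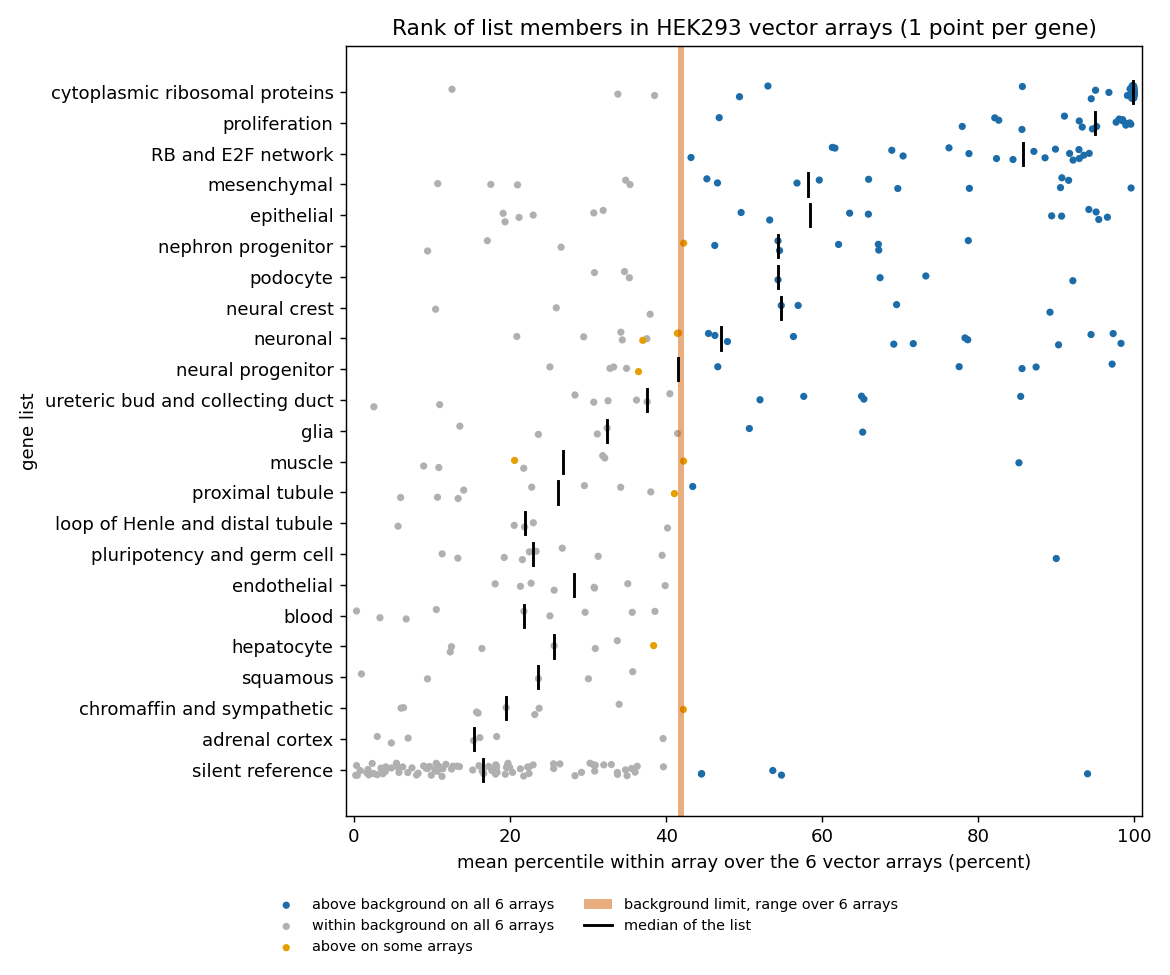
Mean percentile over the 6 vector arrays (percent) of every gene read in each list, 1 point per gene, with the list's median as a bar and the background limit as a band. Ribosomal, proliferation and RB network genes lie to the right (medians 99.8, 94.9 and 85.8), while the adrenal, endothelial, blood, hepatocyte and squamous lists have no gene above background on all 6 arrays.

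The HOX genes, which give cells their position along the body axis, were read above background from 3 of the 4 clusters. Of 28 read, 22 (78.6%, against 56.6% of all genes) were above background. The median percentile of the 28 was 55, against 50.1 over all genes. In the HOXB cluster 8 of 10 were above it, in HOXC 7 of 9 and in HOXD 7 of 8, and of the HOXA cluster only HOXA2 was read, within background at 31.8 to 37.7. HOXC6 was the most highly ranked, at 95.2, 95.3 and 95.1 on the HA arrays and 94.7, 94.5 and 94.7 on the V5 arrays. HOXD10 followed at 92.1, 92.4 and 92.2 and at 92.0, 92.6 and 92.5. Both lie in the middle or posterior part of their clusters.

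The genes that the study overexpressed were already read in the vector lines. HOXD13 stood at 76.9, 77.6 and 76.6 on the HA arrays and 75.6, 75.7 and 75.8 on the V5 arrays by its brightest probe set, and its other probe sets had mean log2 values of 6.04 and 6.93 for one and 2.27 and 3.31 for the other, on HA and V5 arrays in turn. HOXD9 stood at 48.0, 48.1 and 47.9 and at 51.4, 51.6 and 52.8, and its other probe set had mean log2 values of 2.73 and 2.29. Between them HOXD10 and HOXD11 lay at 92.0 to 92.6 and 66.2 to 68.8, while HOXD12 was within background at 25.2 to 31.3. Within HOXB the members HOXB2 to HOXB9 were all above background, from 48.5 to 84.2, and HOXB1 was within it.

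**Figure D4:**
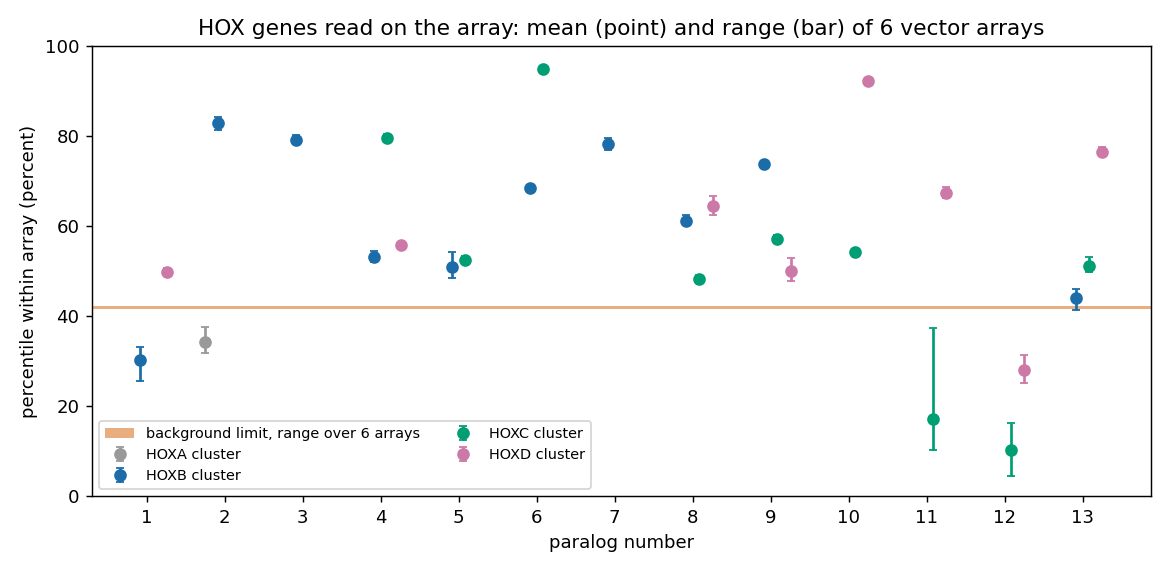
Mean percentile over the 6 vector arrays (percent, vertical axis) of each HOX gene read against its paralog number in the cluster, with bars from the lowest to the highest array; colours are clusters and the band is the background limit. HOXC6 at 94.9 and HOXD10 at 92.3 are highest, HOXB2 to HOXB9 form an unbroken run over the limit, and HOXD12 lies below it between HOXD11 and HOXD13.

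The machinery that HEK293 offers to a transfected receptor was read next. Of 16 G protein subunit genes, 15 were above background with a median percentile of 85.3. GNAS, the stimulatory alpha subunit, stood at 99.7 on each of the 6 arrays, GNB1, the main beta subunit, at 96.5 to 96.9, GNAI3 at 94.7 to 95 and GNA13 at 94.0 to 94.5. GNAQ and GNA11, which couple to phospholipase C, lay at 83.3 to 88.2 and 85.9 to 87.7. GNA15, the promiscuous subunit of blood cells, was within background at a mean of 15.

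Of 25 G protein coupled receptors read, 12 (48.0%, against 56.6% of all genes) were above background. The median of the list, 42.4, is at the limit itself. F2R, the thrombin receptor PAR1, lay at 78.9 to 80.0, the chemokine receptor CXCR4 at 73.3 to 76.4, the adenosine receptor ADORA2B at 68.3 to 70.1, the purinergic receptor P2RY1 at 61.5 to 65.7 and the muscarinic receptor CHRM3 at 57.6 to 59.1. Receptors often studied in these cells after transfection, among them OPRM1 (25.1), HTR2A (22.3), DRD1 (20.9), DRD2 (39.9), CHRM1 (19.6) and ADRB1 (39.7), were within background. Receptor messengers tend to be scarce, and a place under the limit does not show that the receptor is lacking.

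Ion channels gave a similar picture. Of 28 read, 16 (57.1%, against 56.6% of all genes) were above background. The median of the list was 50.3, the same as that of all genes to within a point. LRRC8A, the essential subunit of the volume-regulated anion channel, lay at 90.9 to 92.3, TRPC1 at 72.8 to 73.8, the mechanosensitive channel PIEZO1 at 67.4 to 70.1 and ITPR3, a calcium release channel, at 61.9 to 64.3. STIM1 and ORAI1, the sensor and the pore of store-operated calcium entry, lay at 53.4 to 56.3 and 51.6 to 53.1. The sodium channels SCN2A (14.3) and SCN3A (23.7), the potassium channels KCNA1 (10.3) and KCNJ2 (23.5), and CFTR (33.7) were within background.

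Of 22 receptor tyrosine kinases, 14 (63.6%, against 56.6% of all genes) were above background. The median of the list was 55.9, against 50.1 over all genes. MET, the receptor of hepatocyte growth factor, stood at 92.4 to 92.7, and IGF1R, INSR and FGFR3 stood at 91.1 to 92.1, 84.8 to 88.7 and 81.7 to 83.3. EGFR and ERBB2 lay at 52.9 to 56.0 and 63.4 to 64.2. PDGFRA (32.9), PDGFRB, KDR, AXL (17.1) and NTRK2 (23.5) were within background.

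Sensors of foreign nucleic acid, which decide how a cell answers transfected DNA, were read in part. Of 24 genes of innate sensing, 10 (41.7%) were above background with a median percentile of 36.3, against 56.6% and 50.1 over all genes. MAVS, the mitochondrial adaptor of RNA sensing, stood at 72.3, 72.2 and 72.3 on the HA arrays and 74.5, 75.2 and 73.7 on the V5 arrays, and IFNAR1, TBK1, IFNAR2 and IRF3 lay between 56.7 and 68.9. The RNA sensors RIGI and IFIH1 were low, at 42.6 to 46.0 and 45.4 to 48.4. CGAS, the sensor of cytosolic DNA, was within background at 40.1, 40.2 and 40.2 and at 40.3, 40.1 and 40.1, and its adaptor STING1 was just over the limit at 43.3 to 44.9. All 10 Toll-like receptors, MYD88 (23.2), AIM2 (14.8) and NLRP3 (21.4) were within background.

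The ranks of the HA and V5 vector lines were then compared. Percentiles were tested with limma over 11648 genes that were over the limit on at least 3 arrays, and calls needed an adjusted p under 0.05 together with a difference of at least 10 percentile points. This called 70 genes (0.601% of those tested), 32 ranked higher in the HA arrays (0.275%) and 38 in the V5 arrays (0.326%). Most called genes sat at the edge of detection: 58 of the 70 were over the limit on all 3 arrays of 1 set and within background on all 3 of the other, where hundredths of a log2 unit move a gene by many places. These 58 met the filter through the set in which they are high, so a difference was built in and their p-values support nothing. Among the 11195 genes above background on all 6 arrays, 12 were called (0.107%), and 97.4% differed by less than 5 points, with a median difference of 1.14 points in either direction. The minimum of 10 points matters, since 6585 genes passed the adjusted p alone and the 3 and 3 percentiles did not overlap for 7850 (67.4%).

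The largest differences were all of such genes, given here as values without a test. PLCB2, a phospholipase C of blood cells, stood at a mean of 47.4 in the HA and 6.41 in the V5 arrays, a difference of 41.0 points. ZNF414 (32.7 points), PRR22 (30.2), TIAM1-AS1 (27.5), an immunoglobulin kappa variable orphon (26.7), FGF6 (22.3), PRR29 (21.3) and C2orf81 (20.9) were also higher in the HA arrays. FGFR4, a receptor of fibroblast growth factors, stood at 17.7 in the HA and 43.4 in the V5 arrays, a difference of -25.7 points. LOC100128653 (-22.9 points), LIMK1 (-22.3), STAG3L3 (-21.9), KRTAP19-3 (-21.5), LYG1 (-19), C19orf18 (-16.3) and TTN-AS1 (-16.1) went the same way. In each of these 16 genes the lower set was within background, so the size in points reflects the order of values at the floor.

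The 12 called genes that were above background on all 6 arrays, named here after their values were seen, were all ranked higher in the V5 arrays. AKAP9, a scaffold of the Golgi and centrosome, stood at 56.2, 54.5 and 54.2 on the HA arrays and 69.6, 68.8 and 68.1 on the V5 arrays, a difference of -13.8 points (SE 0.665, adjusted p = 7.24e-05). EEA1, an endosomal tether, differed by -12.9 points, ZNF92 by -11.4 and ASPM, a spindle protein, by -11.3. The Golgi coiled-coil genes GOLGA4, GOLGA8A and GOLGB1 differed by -10.8, -10.8 and -10.4 points and the mitotic kinesin genes KIF20B and KIF14 by -10.8 and -10.4. ZNF91 (-10.5), the chromatin remodeller ATRX (-10.1) and SMC5 (-10.1) completed the group. That the 3 HA and 3 V5 percentiles of each did not overlap follows from how the group was chosen and adds no support. The same held for 67.4% of all genes tested. Leaving out 1 array at a time gave 10 to 12 such calls, all higher in the V5 arrays.

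Several of the 12 are long genes, with a median genomic span of 88.6 kb against 32.3 kb for the 11190 expressed genes with a span. Over these genes the difference in percentile fell slightly with the span, with Spearman's rho of -0.18 across genes, which are not independent replicates. The median difference was 0.347 points in the shortest of 4 equal groups of genes and -0.304 points in the longest. The 3′ minus 5′ log2 difference of the ACTB control probe sets, a measure of how far the labelled RNA reaches, was 2.29 to 2.37 on the HA and 2.19 to 2.26 on the V5 arrays, and that of GAPDH was 0.646 to 0.686 and 0.682 to 0.719. Their part in the result was not tested. The tag vector, the culture and the separate normalization of the sets cannot be told apart.

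**Figure D5:**
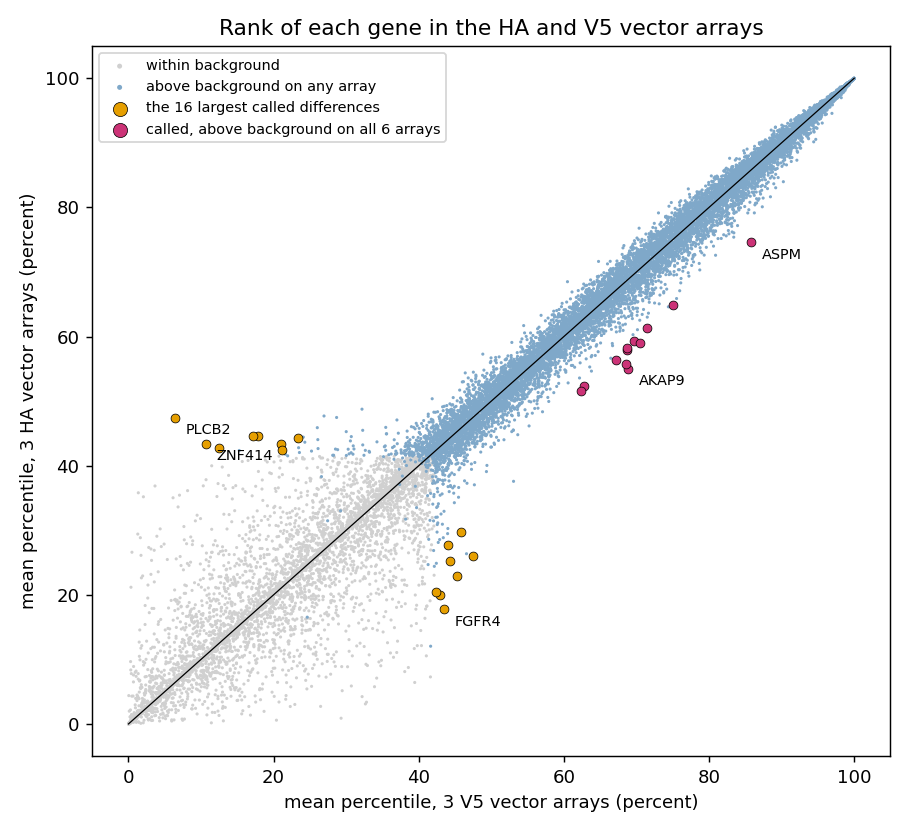
Mean percentile of each gene over the 3 HA vector arrays (vertical axis, percent) against that over the 3 V5 vector arrays (horizontal axis, percent); the line marks equal rank. Genes over the limit hug the line, the 16 largest called differences (orange) join the floor of 1 set to the limit of the other, and the 12 called genes above background on all 6 arrays (magenta) lie on the V5 side by 10.1 to 13.8 points.

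The given markers that were tested differed little between the vectors, while NEFM, within background on all 6 arrays, was not tested. KRT18 differed by 1.17 percentile points (SE 0.116, adjusted p = 0.000776), CDH2 by 1.52 (SE 0.217, adjusted p = 0.0027), EYA1 by 1.72 (SE 0.569, adjusted p = 0.0473) and PAX2 by 1.96 (SE 0.169, adjusted p = 0.000471), all ranked slightly higher in the HA arrays. None reached 10 points. Of the 303 list members tested, 3 were called (0.990%): FGFR4, the calcium channel gene CACNA1A (13.8 points higher in the HA arrays) and the synaptic vesicle gene SYP (12.1 points higher in the HA arrays). Each was over the limit in 1 set only and met the filter through it, so nothing is read from this count. No list member that was above background on all 6 arrays was called.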

How the data were processed

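Per the labels, each of the 6 samples is 1 Affymetrix array, and no depth applies: the number of arrays limits the precision. The deposited values are log2 GCRMA values, 1 per probe set, per the submitters' processing notes; the scale was read from the values, and the software version is not given in the sources used here. GCRMA corrects background by probe sequence, which puts transcripts that are not detected at a floor. Of 54675 probe sets, 62 are controls, 1801 name several genes and 11721 none, and these were left out; 41043 of the 41091 with 1 symbol were matched to RefSeq of GRCh38.p14. Percentiles, lists, promoter counts and figures were computed in Python 3.11.15 (matplotlib 3.10.9). Percentiles of HA and V5 arrays were compared with limma 3.58.1 (lmFit, eBayes) under R 4.3.3, two-sided, with Benjamini-Hochberg adjustment; the code was tested on simulated data, where the adjusted p alone, with no minimum difference, let through more false calls than its threshold aims at.

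The lists hold 590 entries in 33 lists, of which 524 were read; 18 gene families defined by symbol were added after the ranks were seen. The markers, lists and rules were chosen, and these arrays singled out, with earlier results of these data known. Named were the 5 given markers, the 20 highest genes outside the ribosome and 5 ribosomal ones, up to 4 of the highest members of each list with those written first in it, the 8 largest called differences each way, and the widest ranges; other members were named after their values were seen. Alternatives were other background limits, probe set choices, scales, filters, a replicate block and each array left out. Other background corrections and normalizations of the arrays were not run, since only processed values were used. The start sequences of the given markers and 1 gene of the RB network are not reported here.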

Additional observations from a re-analysis of the deposited data

How the results depend on the processing

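The number of genes above background stayed within 1.5 times the 11195 reported under every setting tried, from 7617 to 12389, and was 11196 to 11212 with 1 array left out. A limit at percentile 60 left 40 of the 62 members counted over 20 lists. Without probe sets ending in _x_at or _s_at, the counts above background were 28 for ribosomal proteins, 7 for glycolysis, 7 for actins and tubulins, 5 for epithelial genes, 7 for mesenchymal genes and 2 for the given markers, with KRT18 not read because its single probe set is of that class. The loop of Henle and the chromaffin lists, reported with no gene above background, had 1 each. A looser limit, the 90th percentile of the reference genes, put 80 members of the same 20 lists above it. The adrenal cortex, endothelial, loop of Henle and chromaffin lists then had 1 each, blood 2 and proximal tubule 3. The 95th percentile of olfactory receptor genes put 76 above it, with blood at 1 and the others unchanged. The hepatocyte and squamous lists had none under any setting. A limit at percentile 60 left 8 neuronal genes, 3 nephron progenitor genes, 4 G protein coupled receptors, 4 ion channels and 12 HOX genes. The rank of EYA1 rests on 1 probe set: its mean percentile ran from 9.88 to 55.4 over the settings, that of NEFM from 15.1 to 34.9, PAX2 from 46.0 to 53.7, KRT18, where read, from 95 to 97.9 and CDH2 from 90.5 to 94.2. The 70 called rank differences between the vectors became 612 with no filter, 17 at a minimum of 20 points, 6585 with no minimum, 117 with the mean of all probe sets (39 shared with the 70) and 12 among genes above background on all 6 arrays, a setting added after seeing the data. Leaving out 1 array gave 35 to 44, by construction: with 2 arrays in a set, genes over the limit in that set alone no longer reach the 3 arrays asked for. Without an HA array no call was higher in the HA arrays. Replicate numbers did not pair the arrays, with correlations of deviations of -0.0259 to 0.0175 for equal and -0.0167 to 0.0406 for unequal numbers; with the replicate number as a block, 68 genes were called, all among the 70.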

Other observations

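Families of developmental transcription factors were picked by symbol after the ranks had been seen, and the genes named are their highest members. Of 39 FOX genes read, 24 (61.5%, against 56.6% of all genes) were above background, led by FOXD1, a gene of the kidney stroma, at percentiles 95.4, 95.2 and 95.4 on the HA arrays and 94.9 on each of the V5 arrays. Of 6 GATA genes, 4 (66.7%) were above it: GATA6 (93.3 to 93.9), a gene of endoderm and heart, GATA3, GATA2 (67.3 to 70.6) and GATA4 (66.3 to 68.6). Of 5 IRX genes, 3 were above it, led by IRX3 at 91.0 to 93.8, and of 8 ZIC and GLI genes, 5 were, led by ZIC2, a gene of the dorsal neural tube, at 91.7 to 92.8. Of 10 LHX and ISL genes, 6 were above background, led by LHX2, a forebrain and limb gene, at 84.8 to 87.0. Of 12 POU genes, 4 (33.3%, under the 56.6% of all genes) were, led by POU4F1, a gene of sensory neurons, at 78.9 to 80.1. Of 9 PAX genes, 6 (66.7%) were, with PAX6 and PAX3 (70.8 to 73.0), a gene of neural crest and muscle precursors, as the highest. Of 10 NKX genes, 4 (40.0%) were, led by the heart gene NKX2-5 at 69.6 to 75.3, and of 16 TBX genes, 6 (37.5%) were, led by TBX3 at 71.4 to 73.4. Both shares are under that of all genes. Of 9 sine oculis homeobox and EYA genes, 7 (77.8%) were above background, among them EYA3 (86.0 to 87.3) and EYA2 (69.7 to 73.2).

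Of 9 protocadherins of the delta class, adhesion molecules best known from the brain, 8 (88.9%, against 56.6% of all genes) were above background. PCDH7 (71.8 to 78.0) and PCDH9 (72.0 to 73.5) led them, and the median of the 9 was percentile 46.8. Of 20 claudins, 5 were above it, led by CLDN12 (80.2 to 81.6). Among 26 cancer-testis antigens PRAME alone was above background, at 54.6 to 57.1. By kind of gene, 64.5% of 16521 protein-coding genes were above background, 14.3% of 2658 long noncoding RNA genes and 28.3% of 424 transcribed pseudogenes. By chromosome the share ran from 47.1% on chromosome 21 to 61.8% on chromosome 15.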
